A study of Mus musculus with 16 samples.

Results

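The genes of de novo fatty acid synthesis described here are 10 genes of the deposited table: Fasn, Acaca, Acacb, Acly, Scd1, Scd2, Elovl6, Thrsp, Mlxipl and Srebf1. They were taken by symbol, with no measured value in the rule, and make up 10 of the 45777 genes in the table. RNA was sequenced from epididymal white adipose tissue (the fat pad beside the epididymis) of male mice, with 4 libraries in each of 4 groups and 1 numbered mouse per library. The Ctrl_8wk and Ctrl_20wk groups were control mice, and the OE_8wk and OE_20wk groups were A-LTA4HOE mice, which overexpress Lta4h, the gene of leukotriene A4 hydrolase, in adipocytes. Mice of both genotypes were put on a high-fat diet at 4 weeks of age. The 8-week groups had eaten it for 4 weeks and the 20-week groups for 16 weeks, so age and time on the diet cannot be told apart here, and no group ate another diet. The labels name neither the promoter that drives the transgene nor the strain, nor what the control mice carry.

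Fatty acid synthesis in the cytosol starts from citrate exported by mitochondria, which ATP citrate lyase splits to acetyl-CoA. Acetyl-CoA carboxylase turns this into malonyl-CoA, fatty acid synthase builds palmitate from it, and elongases and stearoyl-CoA desaturases lengthen the chain and add a double bond. Insulin, through SREBP-1c, and glucose, through ChREBP, are the known activators of these genes in liver and fat, and in rodent fat the pathway is known to be low when dietary fat is high.

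Libraries held 33626901 to 67576994 counts, and all 10 genes were among the 19189 genes with enough counts to be tested. Lta4h stood at 79.4 to 104 CPM (counts relative to the TMM-adjusted library total) in the 8 Ctrl libraries and at 239 to 427 CPM in the 8 OE libraries, with no overlap. Ctrl_8wk replicate 4 and OE_8wk replicate 2 stood apart: the summed level of 12 epididymal duct markers was 3689 and 2428 CPM in them, and that of 6 smooth muscle markers 4000 and 3903 CPM. In each 8-week group only 3 of the 12 duct markers had a mean of at least 1 CPM. Lcn9, Adam28, Rnase9 and Cst11 were at 0 in every OE_8wk library. In the 20-week libraries the duct markers summed to 0.108 to 4.00 CPM, with Lcn5, Lcn9, Cst11 and Gpx5 at 0 in all 8. The deviations of Ctrl_8wk replicate 1 and OE_8wk replicate 1 from their group means were alike across genes (r = 0.826), and OE_20wk replicate 1 had the highest adipocyte and the lowest macrophage marker level of its group. Calls that change without all 5 of these libraries are given with and without them, as are such changes of direction at each age and in the interaction. Changes without only some of the 5 are given in part.

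In control mice, 9 of the 10 synthesis genes fell between 8 and 20 weeks, and none rose. Of all genes tested, 21.3% were called lower and 19.6% higher in that comparison, at an adjusted p under 0.05 in edgeR's quasi-likelihood test. Thrsp and Scd1 fell most, by 4.99-fold and 4.70-fold, and Fasn was the gene that missed the threshold. In OE mice 3 of the 10 fell, Thrsp, Scd1 and Acaca, and none rose, where 9.91% of all genes were called lower and 13.1% higher. With upper quartile scaling in place of TMM, the OE comparison called 2190 genes higher and 2566 lower, against 2509 and 1902, and 4 of the 10 genes were called lower, none higher. The median log2 fold change of the 10 genes was -1.07 in Ctrl and -0.44 in OE mice, beside -0.05 and -0.03 for all genes tested. The libraries of the 2 ages did not overlap for 4 of the 10 genes in Ctrl mice, all lower at 20 weeks, beside 14.8% of all genes all lower and 18.5% all higher. In OE mice this held for 2 of the 10, beside 9.5% of all genes all lower and 12.9% all higher. In whole tissue, fewer adipocytes and less RNA per adipocyte cannot be told apart.

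**Figure D1:**
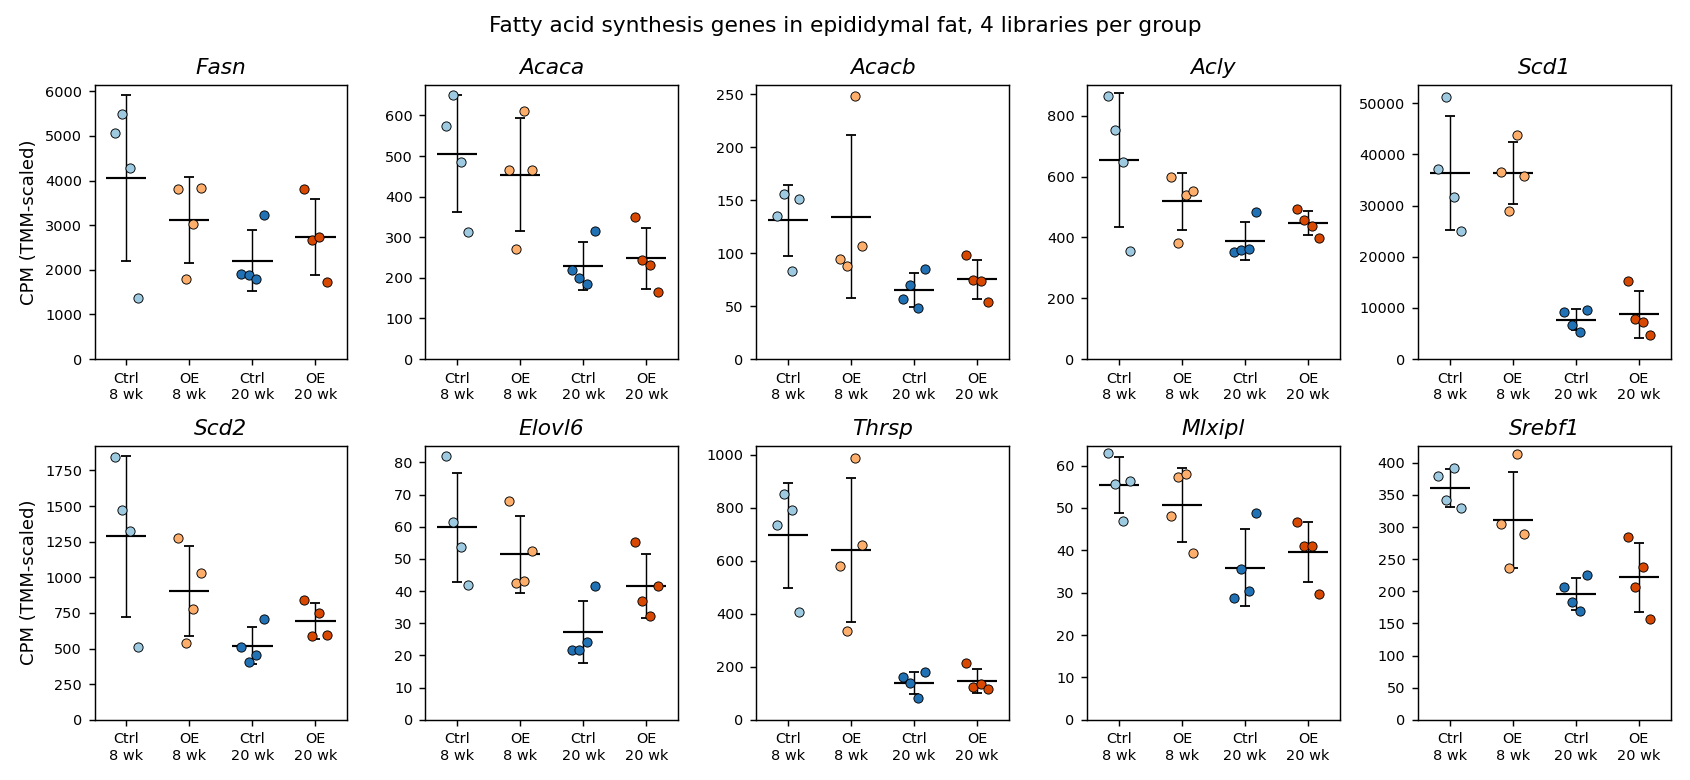
Level of each synthesis gene in every library, as CPM scaled by TMM factors (linear axes from 0); points are libraries, the horizontal line is the group mean and the bar 1 SD (n = 4 per group). Scd1 and Thrsp show the widest gap between the ages in both genotypes, and Ctrl_8wk replicate 4 is the lowest point of its group for Fasn, Acaca, Acly, Scd1, Scd2, Elovl6, Thrsp and Srebf1.

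Per unit of transcript length, in the deposited TPM, Scd1 was far above the other 9 genes. Its TPM was 15096 ± 3833 in Ctrl_8wk, 15314 ± 1463 in OE_8wk, 3470 ± 923 in Ctrl_20wk and 3862 ± 1989 in OE_20wk (SD, n = 4). By mean TPM it ranked 4 among all genes in both 8-week groups, 28 in Ctrl_20wk and 30 in OE_20wk. At 8 weeks the order of mean TPM in both genotypes was Scd1, Thrsp, Fasn, Scd2, Acly, Srebf1, Acaca, Acacb, Mlxipl and Elovl6. At 20 weeks Fasn stood before Thrsp and Mlxipl before Acacb, again in both genotypes. The libraries of a gene and of the next in order did not overlap in any group for Scd1 and the next, Acly and Srebf1, Srebf1 and Acaca, and Acaca and the next. Fasn and Thrsp were separate in Ctrl_20wk only, and the other neighbours overlapped in every group. Scd1 alone held 79.4% to 88.5% of the summed TPM of the 10 genes in the 8-week libraries and 64.0% to 76.5% in the 20-week libraries. Together the 10 genes made up 1.83 ± 0.448% of all TPM in Ctrl_8wk, 1.80 ± 0.200% in OE_8wk, 0.482 ± 0.122% in Ctrl_20wk and 0.543 ± 0.235% in OE_20wk (SD, n = 4).

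**Figure D2:**
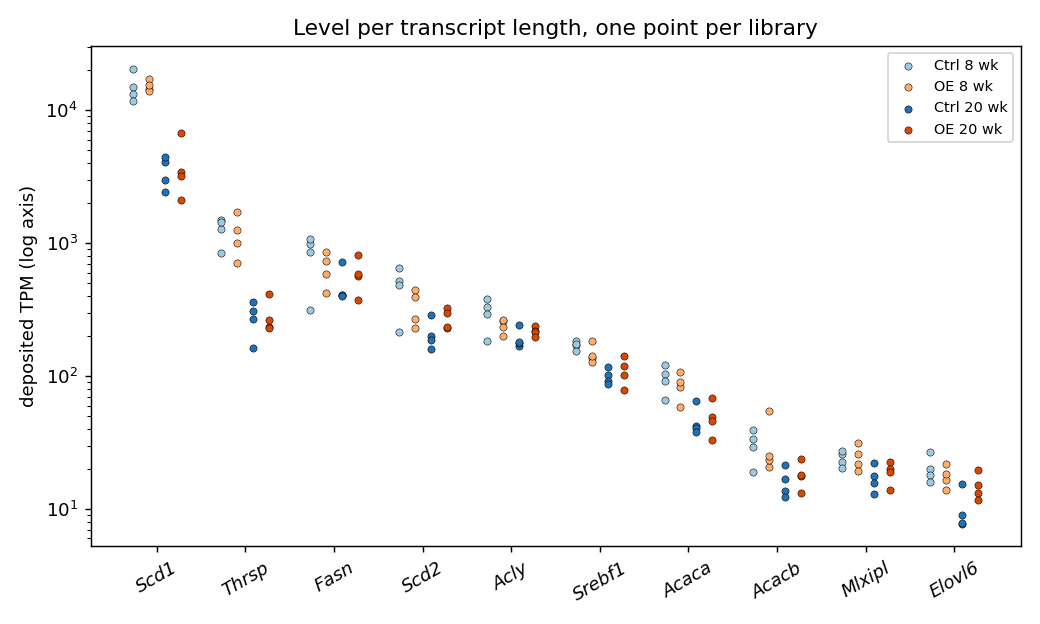
Deposited TPM of the 10 synthesis genes (log axis), 1 point per library, genes ordered by their level at 8 weeks and libraries coloured by group. Scd1 lies between 2108 and 20529 TPM, and Elovl6 between 7.76 and 26.6 TPM.

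Acly encodes ATP citrate lyase, which makes cytosolic acetyl-CoA (chr11:100476352-100528000, mm10). Its level was 864, 752, 648 and 354 CPM in Ctrl_8wk replicates 1 to 4 and 599, 382, 540 and 552 CPM in OE_8wk. At 20 weeks it was 352, 359.8, 360.2 and 482 CPM in Ctrl and 494, 458, 437 and 398 CPM in OE mice. Ctrl_8wk replicate 4 lay among the Ctrl_20wk libraries, and the other 3 Ctrl_8wk libraries lay above them. Acly fell in Ctrl mice, with a log2 fold change of -0.75 ± 0.22 (SE, adjusted p = 0.0162). In OE mice the 2 ages overlapped, and the log2 difference was -0.21 with a 95% interval of -0.69 to 0.26.

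Acaca encodes the cytosolic acetyl-CoA carboxylase (chr11:84129635-84401651), and Acacb its mitochondria-bound relative, whose malonyl-CoA is known for holding back fatty acid oxidation (chr5:114146321-114250761). Acaca stood at 574, 650, 486 and 314 CPM in Ctrl_8wk and at 467, 272, 612 and 466 CPM in OE_8wk. At 20 weeks it was 218, 199, 184 and 316 CPM in Ctrl and 349, 244, 233 and 165 CPM in OE mice. A single library of each age, replicate 4 in both, made the Ctrl ages overlap. The log2 fold change of Acaca was -1.14 ± 0.29 in Ctrl (adjusted p = 0.00699) and -0.87 ± 0.29 in OE mice (adjusted p = 0.0402). The OE call was lost in 15 of 29 other settings, including when 9 single libraries were left out in turn, with adjusted p from 0.0511 (without Ctrl_20wk replicate 2) to 0.129 (without OE_8wk replicate 3). The others of these 9 were Ctrl_20wk replicate 1, Ctrl_8wk replicate 3, OE_20wk replicates 2, 3 and 4, and OE_8wk replicates 1 and 4.

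For Acacb the libraries gave 135, 155, 82.9 and 151 CPM in Ctrl_8wk and 94.9, 87.9, 249 and 107 CPM in OE_8wk. The 20-week values were 56.9, 69.6, 48.1 and 85.2 CPM in Ctrl and 98.6, 74.3, 73.9 and 54.2 CPM in OE mice. OE_8wk replicate 3 was more than 2 times the next library of its group. Acacb fell in Ctrl mice by 1.01 ± 0.32 on the log2 scale (adjusted p = 0.0236). This call held in 24 of 29 other settings, and the highest adjusted p over all of them was 0.101. Among the losses were the fits without Ctrl_20wk replicate 1 (adjusted p = 0.0578) and without Ctrl_20wk replicate 3 (0.0726). It was also lost without Ctrl_8wk replicate 2 (0.0598) and without the 5 libraries named above (0.0651). In OE mice Acacb did not pass (log2 difference -0.84, 95% interval -1.53 to -0.15, adjusted p = 0.0744). It was -1.38 without the 5 libraries (adjusted p = 0.0160), and -0.36 without OE_8wk replicate 3 (adjusted p = 0.329). It also passed without OE_20wk replicate 1 (adjusted p = 0.0493) and without OE_8wk replicate 2 (0.0428). The Acaca to Acacb ratio of TPM was 3.40 ± 1.30 in Ctrl_8wk and 2.91 ± 0.333 in Ctrl_20wk (SD, n = 4), a difference within the spread.

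Fasn encodes fatty acid synthase, the enzyme that builds palmitate (chr11:120805958-120825166). It was measured at 5062, 5500, 4290 and 1368 CPM in Ctrl_8wk and at 3814, 1794, 3030 and 3834 CPM in OE_8wk. At 20 weeks the values were 1914, 1884, 1787 and 3234 CPM in Ctrl and 3816, 2677, 2738 and 1721 CPM in OE mice. In Ctrl mice 3 of the 4 young libraries lay above all old ones, while Ctrl_8wk replicate 4 lay below them all. The log2 difference in Ctrl mice was -0.88 ± 0.38 (adjusted p = 0.0802), and it passed the threshold without Ctrl_8wk replicate 4 (-1.17, adjusted p = 0.00892), without Ctrl_20wk replicate 4 (-1.12, adjusted p = 0.0474) and without the 5 libraries (-1.14, adjusted p = 0.00818). Both DESeq2 (adjusted p = 0.0367) and limma voom with library weights (adjusted p = 0.00150) called it lower. In OE mice the ages overlapped over nearly their whole range, and the log2 difference was -0.19 ± 0.38 (adjusted p = 0.749), with a 95% interval that reached up to 0.63.

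Scd1 and Scd2 encode stearoyl-CoA desaturases, which turn stearate and palmitate into oleate and palmitoleate. They lie on chromosome 19 (chr19:44394450-44407709 and chr19:44293676-44306864) with 87585 bases between them. Scd1 measured 37229, 51225, 31743 and 25077 CPM in Ctrl_8wk and 36654, 28946, 43833 and 35775 CPM in OE_8wk. After the long diet it was 9270, 6676, 5305 and 9625 CPM in Ctrl and 15297, 7865, 7174 and 4709 CPM in OE mice. Every 8-week library lay above every 20-week library, in both genotypes. Scd1 fell 4.70-fold in Ctrl (log2 -2.23 ± 0.34, adjusted p = 2.93e-04) and 4.14-fold in OE mice (log2 -2.05 ± 0.34, adjusted p = 0.00118), and was called lower in each of 29 other settings in both genotypes.

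Scd2 was at 1846, 1472, 1322 and 510.5 CPM in Ctrl_8wk and at 1273, 542, 775 and 1030 CPM in OE_8wk. The 20-week libraries held 511, 406, 458 and 705 CPM in Ctrl and 839, 588, 752 and 593 CPM in OE mice. As for Fasn, Ctrl_8wk replicate 4 was far below the other 3 of its group. Scd2 fell in Ctrl mice (log2 -1.31 ± 0.34, adjusted p = 0.00827), and in OE mice the difference was -0.38 with a 95% interval of -1.10 to 0.33. The Scd1 to Scd2 ratio of TPM was 36.1 ± 14.6 in Ctrl_8wk, 48.9 ± 15.4 in OE_8wk, 16.9 ± 3.27 in Ctrl_20wk and 13.8 ± 5.17 in OE_20wk (SD, n = 4), with no overlap between the ages in either genotype. Reads of these 2 genes and of Scd3 and Scd4 can be split between copies: 2.97% of the 50-base windows of Scd1 transcripts also stand in Scd2 transcripts and 3.42% in Scd3 transcripts. Acaca and Acacb transcripts share no such window.

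Elovl6 encodes the elongase that takes palmitate to stearate (chr3:129532386-129638495). Its level was 82.0, 61.6, 53.6 and 42.0 CPM in Ctrl_8wk and 68.1, 42.4, 43.1 and 52.3 CPM in OE_8wk. At 20 weeks it was 21.8, 21.7, 24.1 and 41.6 CPM in Ctrl and 55.3, 37.1, 32.4 and 41.5 CPM in OE mice. The Ctrl ages were just separate, since the highest old library, replicate 4, lay directly below the lowest young one. Elovl6 fell in Ctrl mice (log2 -1.13 ± 0.26, adjusted p = 0.00373), and in OE mice the difference was -0.31 with a 95% interval of -0.85 to 0.23.

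Thrsp encodes Spot 14, a small protein known as a marker of lipogenic tissue and a partner in the regulation of the synthesis enzymes (chr7:97412933-97417550). It stood at 733, 853, 790.5 and 407 CPM in Ctrl_8wk and at 578, 334, 988 and 659 CPM in OE_8wk. In the older mice it was 159.7, 138, 81.4 and 179 CPM in Ctrl and 214, 122, 135 and 116 CPM in OE mice. The ages were separate in both genotypes, with the lowest young library, OE_8wk replicate 2, still above the highest old one. The fall was 4.99-fold in Ctrl (log2 -2.32 ± 0.35, adjusted p = 2.39e-04) and 4.36-fold in OE mice (log2 -2.12 ± 0.34, adjusted p = 0.00101), and it was called in each of 29 other settings in both.

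Srebf1 encodes SREBP-1, the transcription factor through which insulin acts on these genes (chr11:60199084-60224186), and the table does not separate its isoforms. The libraries held 379.8, 341, 392 and 330.1 CPM in Ctrl_8wk and 305, 236, 414 and 289 CPM in OE_8wk. Those at 20 weeks held 206, 184, 169 and 226 CPM in Ctrl and 285, 207, 237 and 157 CPM in OE mice. The Ctrl ages did not overlap, while in OE mice they did. Srebf1 fell in Ctrl mice (log2 -0.88 ± 0.18, adjusted p = 0.00213). In OE mice it did not pass (log2 difference -0.49 ± 0.18, adjusted p = 0.0657), but did without OE_20wk replicate 1 (adjusted p = 0.0179), without OE_8wk replicate 2 (0.0277) and without the 5 libraries (log2 -0.80, adjusted p = 0.0120).

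Mlxipl encodes ChREBP, the glucose-responsive activator of the pathway (chr5:135089890-135139768). It was low, at 62.9, 55.7, 46.9 and 56.5 CPM in Ctrl_8wk and 48.1, 57.3, 57.9 and 39.4 CPM in OE_8wk. Later it was 28.7, 35.7, 30.5 and 48.7 CPM in Ctrl and 46.7, 40.9, 40.9 and 29.8 CPM in OE mice. Only Ctrl_20wk replicate 4 reached into the range of the young Ctrl libraries. Mlxipl fell in Ctrl mice (log2 -0.63 ± 0.18, adjusted p = 0.0141), a call that held in 27 of 29 other settings. One of the losses was the fit without the 5 libraries (log2 -0.51, adjusted p = 0.0960). In OE mice the difference was -0.36 with a 95% interval of -0.74 to 0.03.

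The promoters of 4 starts are shown because they belong to the synthase, to the gene with the largest age change and to the glucose-responsive factor, and differ in the boxes they carry. Each is the 250 bases before a transcription start in RefSeq (GRCm38.p6, the mm10 build), read 5′ to 3′ on the gene's strand. Capitals mark matches on either strand to the E-box CACGTG, the SREBP core TCACNCCAC or the NF-Y box CCAAT. The 250 bases shown are chr11:120824548-120824797 for Fasn (minus strand) and chr7:97417551-97417800 for Thrsp (minus strand). For Mlxipl they are chr5:135089640-135089889 before the upstream start and chr5:135106641-135106890 before the downstream start (both plus strand).
Fasn: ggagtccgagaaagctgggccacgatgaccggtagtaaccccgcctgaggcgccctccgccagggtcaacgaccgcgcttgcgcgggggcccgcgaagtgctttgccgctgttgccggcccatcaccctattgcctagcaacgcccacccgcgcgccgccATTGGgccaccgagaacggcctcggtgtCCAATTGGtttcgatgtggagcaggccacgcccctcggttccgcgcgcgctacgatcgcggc
Thrsp: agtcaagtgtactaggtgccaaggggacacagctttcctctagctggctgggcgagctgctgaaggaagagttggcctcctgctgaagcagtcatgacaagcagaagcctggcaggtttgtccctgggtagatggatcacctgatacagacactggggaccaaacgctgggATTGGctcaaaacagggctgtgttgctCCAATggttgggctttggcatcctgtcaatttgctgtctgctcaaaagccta
Mlxipl upstream start: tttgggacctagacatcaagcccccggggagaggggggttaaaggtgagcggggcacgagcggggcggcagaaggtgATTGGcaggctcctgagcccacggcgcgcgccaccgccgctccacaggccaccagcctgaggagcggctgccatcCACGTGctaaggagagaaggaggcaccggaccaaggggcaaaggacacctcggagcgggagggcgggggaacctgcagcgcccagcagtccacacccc
Mlxipl downstream start: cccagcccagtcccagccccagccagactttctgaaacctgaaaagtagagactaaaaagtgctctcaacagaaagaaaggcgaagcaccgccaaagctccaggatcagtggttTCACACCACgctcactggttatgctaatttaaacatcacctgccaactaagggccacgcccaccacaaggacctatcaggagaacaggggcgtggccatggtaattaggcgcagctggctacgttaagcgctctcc

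Fasn holds 3 NF-Y matches, of which the pair nearer the start overlap, and Thrsp holds 2. The E-box and an NF-Y box stand before the upstream Mlxipl start, and the SREBP core before the downstream one. Promoters of 8 of the 10 genes, with 11 starts, were found in the table, and Scd1 and Scd2 were not matched. The only starts found for Acaca (chr11:84195438) and Acacb (chr5:114165518) lay inside the gene spans given above. The upstream ends of Acaca and Acacb were therefore not read. The E-box was in 1 of the 11 and in 6.02% of all 32851 promoters of the same length, and the SREBP core in 1 of the 11 and in 1.05% of all. The NF-Y box was in 6 of the 11 and in 33.8% of all, and the GC box GGGCGG, left in lower case, in 4 of the 11 and in 32.7% of all. A match is a description of these letters and says nothing of binding in these tissues.

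Between genotypes, no synthesis gene passed the test at either age. At 8 weeks 0 of the 10 were called by edgeR, DESeq2 or limma voom, beside 0.0208% of all genes called higher and 0% called lower by edgeR. None of the 10 had an unadjusted p under 0.05 in edgeR, beside 2.21% of all genes. The OE minus Ctrl log2 differences ran from -0.51 for Scd2 (95% interval -1.22 to 0.21) to 0.04 for Acacb (-0.65 to 0.72), with a median of -0.19 beside 0.00 for all genes. Scd1 differed by -0.00 with a 95% interval of -0.71 to 0.70. Of these differences 9 were negative, and without OE_8wk replicate 2 those of Acaca (0.02), Scd1 (0.09) and Thrsp (0.09) were positive. Acacb was at -0.44 without OE_8wk replicate 3 and at 0.57 without the 5 libraries. With Ctrl_8wk replicate 1 left out, positive differences numbered 2 and negative ones 8. The same counts were found without both libraries numbered 1 at 8 weeks. The OE and Ctrl libraries overlapped for all 10 genes, where 0.787% of all genes were higher and 0.448% lower in every OE library. At 20 weeks 0 of the 10 were called by the same 3 tools, beside 0.0261% of all genes called higher and 0% called lower by edgeR. Over all genes there, DESeq2 called 40 higher and 20 lower, and limma voom 14 higher and 6 lower. The differences ran from 0.07 for Thrsp (-0.63 to 0.78) to 0.61 for Elovl6 (0.06 to 1.15), with a median of 0.19 beside 0.02 for all genes. That all 10 were positive rested on OE_20wk replicate 1: without it Scd1 (-0.23), Thrsp (-0.16) and Acaca (-0.10) were negative, and the median was 0.06. Without the 5 libraries the same 3 genes were negative, with a median of 0.05, and Thrsp was also negative without Ctrl_20wk replicate 3 (-0.11). The libraries again overlapped for all 10 genes, beside 1.24% of all genes higher and 1.49% lower in every OE library. Elovl6 was the only one of the 10 with an unadjusted p under 0.05 there, at 0.0318 (adjusted p = 0.996), beside 3.97% of all genes. No synthesis gene was called for the difference averaged over both ages, where the values lay between -0.07 and 0.20 and edgeR called 0.0365% of all genes higher. Over the other settings, 46 values of this averaged difference changed sign.

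The difference between the genotypes in their change with age was tested itself, since a call in one genotype and none in the other does not show one. No synthesis gene passed this interaction test with edgeR, DESeq2 or limma voom. Over all genes edgeR called 0, and 3.39% had an unadjusted p under 0.05. With DESeq2, 20 genes passed with a positive interaction and 9 with a negative one. The interaction, which is the age change in OE minus that in Ctrl mice, lay between 0.17 for Acacb and 0.92 for Scd2 on the log2 scale, with a median of 0.33 beside 0.02 for all genes. Its sign was not stable for 4 of the 10: without the 5 libraries Acacb (-0.52), Scd1 (-0.17), Thrsp (-0.16) and Acaca (-0.03) were negative, and the median was 0.11. Leaving out OE_20wk replicate 1 alone gave -0.22 for Scd1 and -0.03 for Thrsp, leaving out Ctrl_8wk replicate 2 gave -0.03 for Scd1, and leaving out OE_8wk replicate 2 gave -0.02 for Thrsp. Without the 2 libraries high in some epididymal duct markers, Acacb was at -0.06. For Scd2 it was 0.92 ± 0.47 (95% interval -0.09 to 1.93, adjusted p = 0.982). Elovl6 gave 0.82 ± 0.36 (0.05 to 1.59, adjusted p = 0.982), the only one of the 10 whose interval lay above 0, and the only one with an unadjusted p under 0.05. Fasn gave 0.69 (-0.46 to 1.85) and Acly 0.54 (-0.13 to 1.21). For Scd1 and Thrsp, the genes that fell most in both genotypes, the interactions were 0.18 ± 0.47 and 0.20 ± 0.47.

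**Figure D3:**
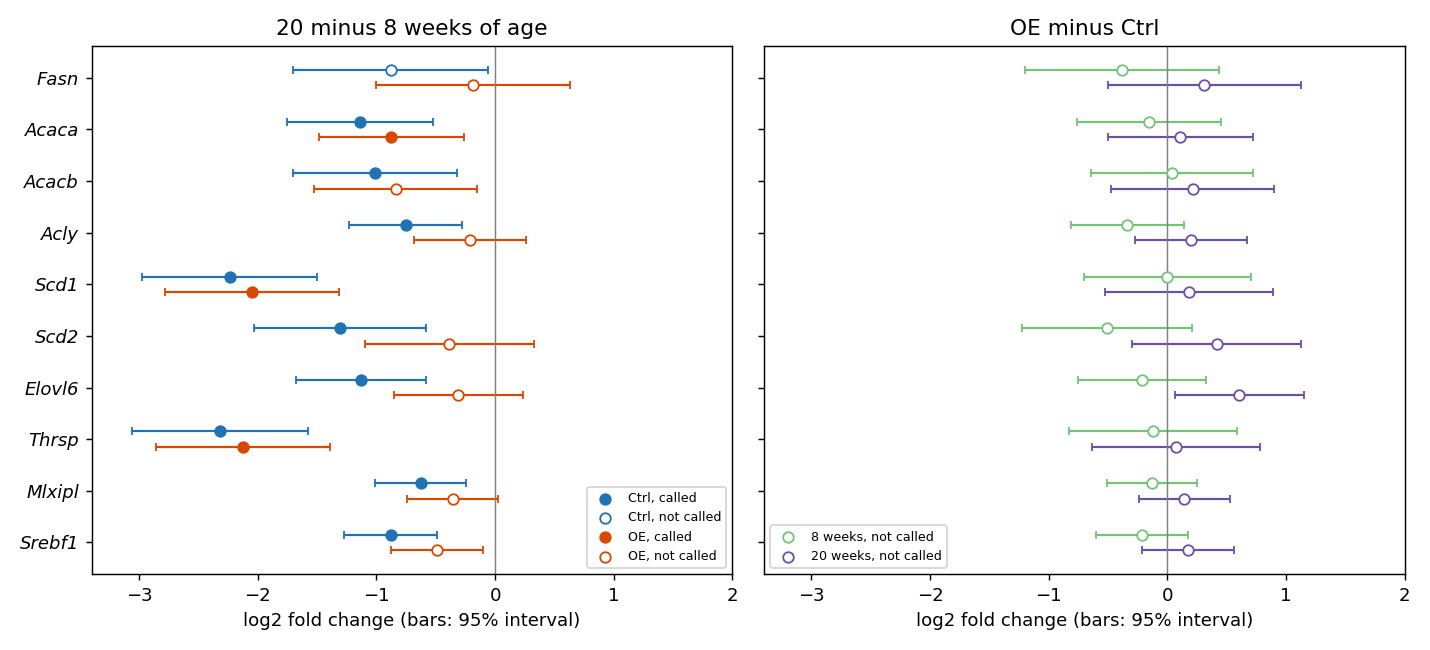
Log2 fold changes of the 10 synthesis genes from edgeR with their 95% intervals, for 20 minus 8 weeks in each genotype (left) and OE minus Ctrl at each age (right); filled points have an adjusted p under 0.05. In the left panel 9 Ctrl and 3 OE points are filled, and in the right panel none is.

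Within groups, the 10 genes varied together from library to library. Over the 16 libraries, after subtraction of each group's mean log2 CPM, the 45 pairs of genes had a median Pearson r of 0.61, from 0.0268 for Acacb and Scd2 to 0.955 for Fasn and Acly. Of these pairs 28 were over 0.5 and 0 under 0. Acly and Scd2 (0.949), Fasn and Scd2 (0.934) and Acaca and Thrsp (0.896) were also closely tied. Acaca had the highest mean r with the other 9 genes (0.744) and Mlxipl the lowest (0.358). All points of such a pair share the library, its depth and its tissue composition. All 10 genes were above their group mean in Ctrl_8wk replicate 1, Ctrl_20wk replicate 4 and OE_20wk replicate 1, and 0 of 10 in Ctrl_20wk replicate 3. Averaged over the 10 genes, the deviation was -0.55 in Ctrl_8wk replicate 4 and -0.45 in OE_8wk replicate 2, the libraries high in some epididymal duct markers. It was 0.44 in Ctrl_20wk replicate 4 and 0.46 in OE_20wk replicate 1.

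**Figure D4:**
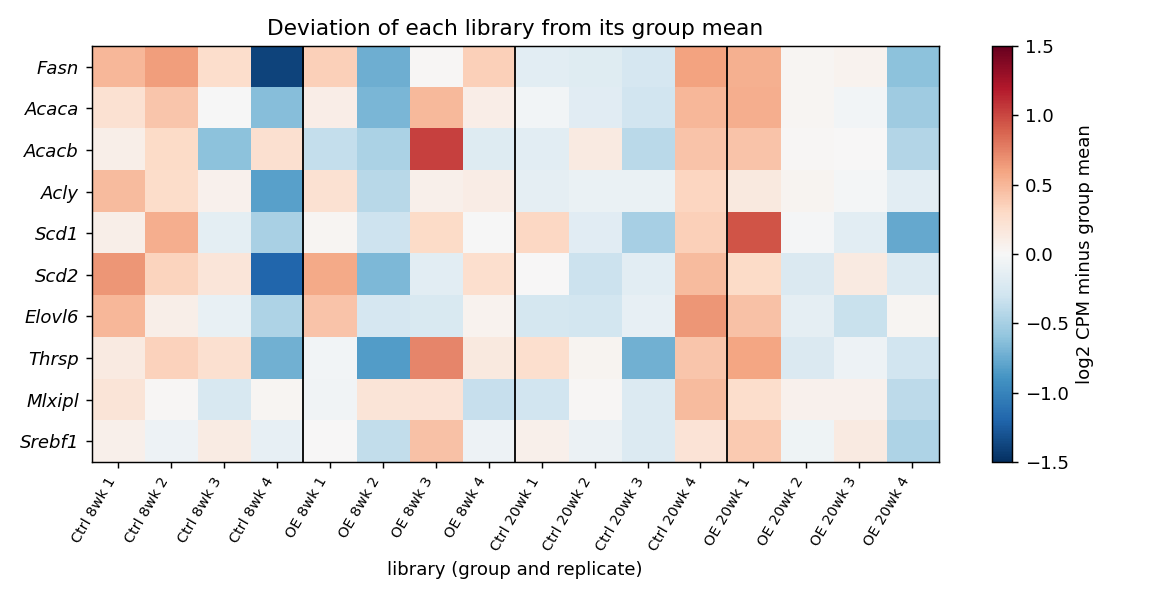
Deviation of each library from its group mean in log2 CPM (colour scale, red above and blue below) for the 10 synthesis genes (rows) in the 16 libraries (columns, groups divided by lines). Ctrl_20wk replicate 4 and OE_20wk replicate 1 are red in all 10 rows, and Ctrl_8wk replicate 4 is darkest blue for Fasn and Scd2.

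Among the genes outside the 10 whose deviations were most like the mean of the 10 were Coasy (r = 0.9705), which makes coenzyme A, Ehd2 (0.967), a protein of caveolae, Zbtb7b (0.965), a transcription factor, and Aifm2 (0.965), an oxidoreductase. They were ranked among 13312 genes over 16 libraries, with group means removed.

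The other genes of the pathway were read from lists by role, and no list was tested as a set. Each list count stands beside the shares of all genes called. These were 21.3% lower and 19.6% higher in Ctrl mice, and 9.91% lower and 13.1% higher in OE mice. Of 12 genes that supply carbon and NADPH, 5 fell in Ctrl mice and none rose, with a median log2 fold change of -0.44. Among them were the mitochondrial pyruvate carrier subunits Mpc1 (-0.87 ± 0.21, adjusted p = 0.00612) and Mpc2 (-0.82 ± 0.23, adjusted p = 0.0125) and pyruvate carboxylase, Pcx (-0.90 ± 0.26, adjusted p = 0.0152). The citrate carrier Slc25a1 (-0.16, adjusted p = 0.668) and malic enzyme, Me1 (-0.75, adjusted p = 0.102), did not pass. In OE mice none of the 12 was called in either direction, and the median was -0.12.

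Of 16 other genes of elongation and desaturation, 7 fell and 1 rose in Ctrl mice, and 3 fell and 2 rose in OE mice, with medians of -0.42 and -0.16. The other desaturases Scd3 and Scd4 had log2 fold changes of -2.22 ± 0.39 and -1.60 ± 0.32 in Ctrl (adjusted p = 6.73e-04 and 0.00149) and of -1.90 and -1.28 in OE mice (adjusted p = 0.00336 and 0.00965). Of the 50-base windows of their transcripts, 4.77% for Scd3 and 2.26% for Scd4 also stand in Scd1 transcripts. The part of Scd1 reads in the values of Scd3 and Scd4 was not tested. Hacd1, a dehydratase of the elongation cycle, changed by -0.80 ± 0.10 (adjusted p = 1.04e-04) and -0.40 (adjusted p = 0.0124). Elovl3, an elongase of very long chains known from brown fat, rose in both genotypes from a mean of 0.136 ± 0.136 to 2.16 ± 0.741 CPM in Ctrl (adjusted p = 0.00722) and from 0.0932 ± 0.108 to 2.24 ± 1.35 CPM in OE mice (SD, n = 4, edgeR adjusted p = 0.0077). Elovl5, the elongase of polyunsaturated chains, fell by 0.42 ± 0.09 in Ctrl mice (adjusted p = 0.00288) and was at -0.20 in OE mice (adjusted p = 0.126).

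Of 24 regulators of synthesis, 8 fell and 4 rose in Ctrl mice, and 6 fell and 2 rose in OE mice, with medians of -0.14 and -0.05. Of all genes, 21.3% were called lower and 19.6% higher in Ctrl mice, and 9.91% lower and 13.1% higher in OE mice. The AMP kinase subunits Prkaa2 (-1.15 ± 0.19, adjusted p = 4.24e-04) and Prkag2 (-0.65 ± 0.12, adjusted p = 9.09e-04) and the nuclear receptor Rxra (-0.80 ± 0.15, adjusted p = 0.00109) fell in Ctrl mice. Usf1 (0.52 ± 0.08, adjusted p = 2.33e-04) and Usf2 (0.50 ± 0.10, adjusted p = 0.00123), E-box binding factors, and Mbtps2 (0.61 ± 0.12, adjusted p = 0.00137), a protease that cuts SREBP, rose. All of these except Mbtps2 were also called in the same direction in OE mice. Mid1ip1, the relative of Thrsp, fell in Ctrl (-0.98 ± 0.20, adjusted p = 0.00179) and was at -0.35 in OE mice (adjusted p = 0.21). Of the direct partners, Mlxip, the paralog of ChREBP, rose in Ctrl mice (0.51 ± 0.18, adjusted p = 0.0353) and Insig2 fell (-0.52, adjusted p = 0.0169). Mlx (-0.24, adjusted p = 0.154), Srebf2 (0.30, adjusted p = 0.138), Scap (-0.14, adjusted p = 0.191) and Insig1 (-0.53, adjusted p = 0.27) did not pass.

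Of 14 other targets of ChREBP and SREBP-1, 8 fell and 2 rose in Ctrl mice, and 4 fell and 1 rose in OE mice, with medians of -0.73 and -0.55. Aacs, an acetoacetyl-CoA synthetase, had log2 fold changes of -2.05 ± 0.21 in Ctrl (adjusted p = 3.62e-05) and -1.40 in OE mice (adjusted p = 6.44e-04). The glucose transporter Slc2a4 fell from 149 ± 27.0 to 33.4 ± 11.7 CPM in Ctrl mice (SD, n = 4, edgeR adjusted p = 2.62e-04) and Pnpla3, a lipid droplet protein, from 588 ± 103 to 197 ± 72.5 CPM (edgeR adjusted p = 4.92e-04). Acsl5, which activates fatty acids, rose (0.48 ± 0.12, adjusted p = 0.00659), as did Txnip, a glucose-induced gene (0.61 ± 0.20, adjusted p = 0.0267), which was at -0.31 in OE mice (adjusted p = 0.28). Of 6 genes of the separate mitochondrial synthesis pathway (7 were listed and 6 matched by symbol), 5 fell in Ctrl and 1 in OE mice, Acsf3, the malonyl-CoA synthetase (-0.59 ± 0.13, adjusted p = 0.00384, and -0.42, adjusted p = 0.0377). No gene of these lists was called between genotypes at either age or for the interaction, by edgeR.

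Markers of several cell types changed with age, some in the direction of the synthesis genes and some in the opposite direction. The marker counts stand beside the same shares of all genes: 21.3% lower and 19.6% higher in Ctrl mice, 9.91% and 13.1% in OE mice. Of 15 mature adipocyte markers, all detected and none at 0 in any group, 10 fell and none rose in Ctrl mice, with a median log2 fold change of -1.13, and 9 fell in OE mice, with a median of -0.77. Their summed level was 43938 to 65898 CPM in Ctrl_8wk, 40182 to 70677 CPM in OE_8wk, 23705 to 35677 CPM in Ctrl_20wk and 28171 to 46548 CPM in OE_20wk. Of the 6 smooth muscle markers 5 fell in both genotypes (medians -3.59 in Ctrl and -2.84 in OE mice), and of 6 endothelial markers 5 fell in Ctrl (median -0.77) and 2 in OE mice (-0.50). Smooth muscle markers summed to 554 to 4000 CPM in Ctrl_8wk, 493 to 3903 CPM in OE_8wk, 144 to 241 CPM in Ctrl_20wk and 204 to 412 CPM in OE_20wk. The highest 8-week sums were those of Ctrl_8wk replicate 4 and OE_8wk replicate 2, which enter the fold changes of these markers. Group medians of the sum were 601 CPM in Ctrl_8wk, 689 CPM in OE_8wk, 182 CPM in Ctrl_20wk and 230 CPM in OE_20wk. Endothelial markers summed to 900.5 to 1127 CPM, 936 to 1185 CPM, 504 to 708 CPM and 522 to 968 CPM in the same order of groups. Of 7 mesothelial markers 2 fell in Ctrl (median -0.07) and 6 in OE mice (-1.75).

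All 10 macrophage markers rose in Ctrl mice (median 1.99) and 9 of 10 in OE mice (1.43). They summed to 1382 to 2381 CPM in Ctrl_8wk, 1720 to 3021 CPM in OE_8wk, 5072 to 8138 CPM in Ctrl_20wk and 3456 to 7958 CPM in OE_20wk. Each of 7 markers of lipid-associated macrophages rose in both genotypes (medians 4.78 and 3.93), from 110 to 711 CPM in sum at 8 weeks to 1894 to 7438 CPM at 20 weeks. Of 8 lymphocyte markers 5 rose in Ctrl (median 1.96) and 1 in OE mice, where the median was -0.56. The lymphocyte markers summed to 10.9 to 18.1 CPM in Ctrl_8wk, 14.5 to 26.8 CPM in OE_8wk and 14.5 to 27.2 CPM in OE_20wk. In Ctrl_20wk their sum ran from 24.0 to 111 CPM with a median of 31.9 CPM, and the highest was replicate 1. At 20 weeks the OE minus Ctrl median was 0.38 for the adipocyte markers, with 0 of 15 called by edgeR, beside 0.19 for the synthesis genes. For the macrophage markers this median was -0.31 (0 of 10 called) and for the lymphocyte markers -1.38 (0 of 8 called). The mean log2 CPM of the adipocyte markers was 10.48, 9.91, 10.04 and 9.55 in OE_20wk replicates 1 to 4. In Ctrl_20wk replicates 1 to 4 it was 9.79, 9.48, 9.21 and 10.01. Within groups, the mean of the 10 synthesis genes followed that of the adipocyte markers with r = 0.925 over 16 libraries, and 0.910 to 0.941 when 1 library was left out. With macrophage markers r was -0.649, with endothelial markers 0.792, and with smooth muscle markers -0.443. The high r was not particular to adipocyte markers. It was 0.934 with the carbon and NADPH supply genes, 0.914 with the regulators of synthesis and 0.894 with the mitochondrial synthesis genes. For the other ChREBP and SREBP-1 targets it was 0.284 (0.119 to 0.453 when 1 library was left out). For the other elongation and desaturation genes it was 0.0141 (-0.138 to 0.177). Genes near the floor weigh as much as the others in these 2 list means. A mean of at least 1 CPM was reached by 11 to 13 of the 14 targets and 12 to 14 of the 16 other genes, depending on the group. The part of these cell types in the age and genotype values was not tested. The 5 hepatocyte markers summed to at most 22.0 CPM in any library.

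**Figure D5:**
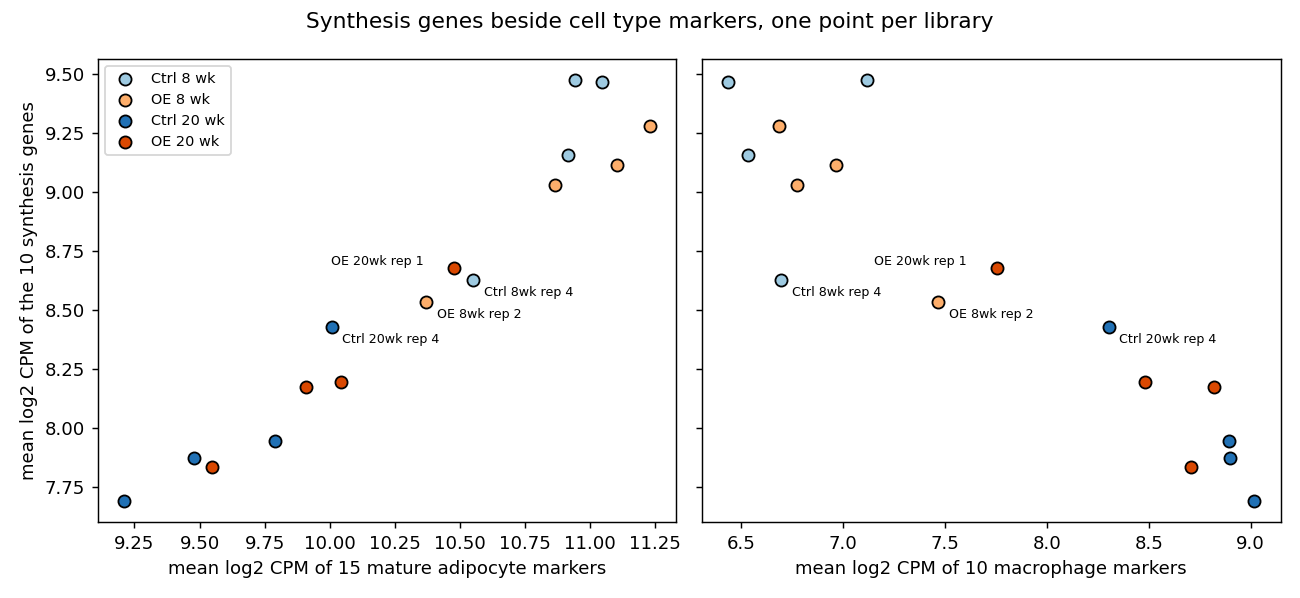
Mean log2 CPM of the 10 synthesis genes against that of 15 mature adipocyte markers (left) and 10 macrophage markers (right), 1 point per library, coloured by group. The synthesis genes are higher where adipocyte markers are higher, with r = 0.925 within groups, and the 20-week libraries lie at lower adipocyte and higher macrophage marker levels.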

How the data were processed

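RNA from 16 fat pads was sequenced, 4 in each group, from libraries of the TruSeq stranded mRNA kit, per the labels' protocols. Per the submitters' processing notes, bcl2fastq 2.20.0, Trimmomatic, HISAT2 2.1.0 and StringTie 2.1.3b were used with the mm10 genome. The strand setting and the annotation release are not given in the sources used here. The authors deposited 1 table with a read count, an FPKM and a TPM for every gene and library, per the file headers. The deposited counts are whole numbers that StringTie may have estimated from coverage, with totals of 33626901 to 67576994 per library. The deposited TPM served for levels per length, and the deposited FPKM were not used.

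From the counts, log2 fold changes were fitted with edgeR 4.0.16 in R 4.3.3: filterByExpr with a minimum count of 10, TMM scaling, a robust quasi-likelihood fit of 4 group means over all 16 libraries with 12 residual degrees of freedom, and Benjamini-Hochberg adjustment over 19189 genes. The SE of a log2 fold change was its size divided by the square root of F, and intervals are 95%. CPM are TMM-scaled, and log2 CPM used a prior count of 2. No 2 libraries were identical. The scripts were tested on simulated data. All replicates were separately numbered mice, so p-values measure the spread between these mice, and no batch is named in the labels. Depth was ample for the 10 genes, each with at least 752 counts in every library.

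The genes, marker lists and pathway lists were chosen with earlier results of these data known. Named were the 10 genes, up to 3 genes of each pathway list called lower and up to 3 called higher in Ctrl mice by adjusted p, direct partners and paralogs of the 10, and the 5 genes most like their mean, of which 1 is not reported here. Alternatives were RLE and upper quartile scaling, DESeq2 1.42.0, limma 3.58.1 (voom with weights, and a trend fit on log2 of TPM plus 1), no filter, the 2 groups alone, each library left out, sets of libraries left out, the replicate number as a block, 2 surrogate variables from sva 3.50.0 and glmTreat at 1.2-fold. Promoters are from RefSeq, and shared 50-base windows were counted over GENCODE M21 transcripts.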

Additional observations from a re-analysis of the deposited data

Results flagged for a closer look

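Within groups of 4 libraries, 4 of 40 gene and group pairs held a library whose gap to the nearest other was large against the group's range by Dixon's test, and chance gives about 1 in 20. In 3 of the 4 pairs the library was Ctrl_20wk replicate 4. Fasn was 3234 CPM there, against 1787 to 1914 CPM in the other 3. Acly was 482 CPM, against 352 to 360.2 CPM. Elovl6 was 41.6 CPM, against 21.7 to 24.1 CPM. This library had the highest adipocyte marker sum of its group, 35677 CPM, and the lowest macrophage marker sum, 5072 CPM, and the part of these in its values was not tested. Acacb was 249 CPM in OE_8wk replicate 3, against 87.9 to 107 CPM in the other 3 libraries of that group.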

How the results depend on the processing

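Across 29 other settings (28 for the interaction), 0 of the 10 genes was called higher in any comparison, and 0 was called between genotypes or for the interaction. The number called lower with age in Ctrl mice, 9 as reported, lay between 8 and 10. The number in OE mice, 3 as reported, was 5 without the libraries high in duct markers. It was also 5 without all 5 libraries named in the report, with voom and with DESeq2. It ranged from 2 to 5 over the libraries left out singly (5 without OE_20wk replicate 1 and without OE_8wk replicate 2). With 2 surrogate variables it was 2, and 8 in Ctrl mice. Scd1 and Thrsp were called lower in both genotypes in all 29 settings. No called value changed sign, while 77 of 1353 values uncalled in both settings did. Of these, 46 were genotype differences averaged over both ages, 14 genotype differences at 8 weeks and 7 at 20 weeks. The others were 9 interactions and 1 age change in OE mice. The replicate number as a block gave 9 genes lower in Ctrl and 2 in OE mice, where Acaca lost its call (adjusted p = 0.0650). Same-numbered libraries correlated over 0.1 in 2 of 16 pairs, and 2 libraries correlated best with their own number, so the number is not taken as a pairing. Depth does not limit these genes, while 4 mice per group leave intervals wide: for Fasn the OE minus Ctrl interval at 20 weeks ran from -0.50 to 1.13.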
